A study of Homo sapiens with 18 samples.

Results

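The nuclear-encoded genes of the mitochondrial respiratory chain were followed in Hep3B cells, a human hepatoma line, across a fatty acid steatosis model and its treatments. The genes were taken by symbol from the count table: NDUFA, NDUFB, NDUFC, NDUFS and NDUFV genes (complex I), SDHA to SDHD (complex II), UQCR genes (complex III), the COX genes from COX4 to COX8 (complex IV) and the ATP5F1, ATP5M and ATP5P genes (complex V). Of 131 matching symbols, 43 had a pseudogene ending and were left out, and 11 of the other 88 lacked the required 10 counts in every library. The remaining 77 genes, of 36684 in the table, comprised 36 of complex I, 4 of complex II, 9 of complex III, 11 of complex IV and 17 of complex V. NDUFA4 was placed in complex I by its symbol, although its protein is now counted with complex IV, and COX7A2L is a supercomplex assembly factor. The members were chosen by their lowest count over all libraries, so their presence at measurable levels is not a result. NDUFV2 (lowest count 13), UQCRHL (25) and NDUFA13 (34) lay just inside that minimum, and NDUFA7 and COX6B2 (lowest count 2 each) just outside it.

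The 6 groups had 3 libraries each. Con cells were the control, Model cells were loaded with free fatty acids (FFA) to induce steatosis, and 3 groups received FFA with fucoxanthin (FUCO), a marine carotenoid, at 0.5, 1 or 2 μM. The last group received FFA with Resmetirom (RES), an agonist of the thyroid hormone receptor β that served the study as its positive control. The FUCO, RES and Model groups therefore share the fatty acid load, and the FFA concentration, the treatment times and the RES dose of these libraries are not given in the sources used here. All cells came from a single established tumour line. The labels do not say that the 3 libraries of a group came from separate cultures, although the methods call them biological replicates, so the p-values measure the spread between these libraries.

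The respiratory chain passes electrons from NADH through complex I, or from succinate through complex II, to ubiquinone, then through complex III and cytochrome c to complex IV, where oxygen is reduced. Complexes I, III and IV pump protons across the inner membrane, and complex V, the ATP synthase, uses their return flow to make ATP. Most subunits are encoded in the nucleus and a few in mitochondrial DNA, and fatty acid oxidation in hepatocytes delivers its electrons to this chain. Thyroid hormone is known to raise mitochondrial content and respiration in liver, and nuclear respiratory factors such as NRF1 and GABP are known regulators of these genes.

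The upstream sequences of 4 members are shown because these genes fell with 2 μM FUCO (ATP5PF, NDUFA6) or were among those higher with RES (SDHB, COX7B), and because they differ in the known regulatory motifs they hold. They are the 250 bases before the first RefSeq transcript start listed for the gene on GRCh38.p14, on the gene's strand, at chr21:25735055-25735304 (minus) for ATP5PF, chr22:42090773-42091022 (minus) for NDUFA6, chr1:17054033-17054282 (minus) for SDHB and chrX:77899218-77899467 (plus) for COX7B. The start used for ATP5PF is 1 of 2 listed for it and lies within the gene, whose RefSeq extent reaches farther upstream. Capitals mark the letters GCGCANGC (NRF1), CCGGAAG (GABP) or AAGATGGC (YY1) on either strand.
ATP5PF: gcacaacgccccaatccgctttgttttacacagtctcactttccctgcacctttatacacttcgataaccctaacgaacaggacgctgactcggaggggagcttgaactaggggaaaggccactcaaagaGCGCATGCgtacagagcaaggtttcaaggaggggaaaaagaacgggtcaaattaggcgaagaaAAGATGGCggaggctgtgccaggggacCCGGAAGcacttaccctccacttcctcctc
NDUFA6: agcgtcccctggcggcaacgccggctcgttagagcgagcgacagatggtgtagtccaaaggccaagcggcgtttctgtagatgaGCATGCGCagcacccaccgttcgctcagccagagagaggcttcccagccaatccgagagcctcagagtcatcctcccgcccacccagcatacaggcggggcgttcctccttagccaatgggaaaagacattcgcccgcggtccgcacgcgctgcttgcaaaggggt
SDHB: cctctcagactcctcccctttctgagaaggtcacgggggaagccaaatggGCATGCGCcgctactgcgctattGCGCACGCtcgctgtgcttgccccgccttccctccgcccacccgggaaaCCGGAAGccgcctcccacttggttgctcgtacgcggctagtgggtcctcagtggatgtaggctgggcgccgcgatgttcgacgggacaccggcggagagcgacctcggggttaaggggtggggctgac
COX7B: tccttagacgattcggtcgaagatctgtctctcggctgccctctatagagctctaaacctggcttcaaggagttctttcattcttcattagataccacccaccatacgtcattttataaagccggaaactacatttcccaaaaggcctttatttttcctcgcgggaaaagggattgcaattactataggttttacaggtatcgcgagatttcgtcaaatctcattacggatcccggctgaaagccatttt
The ATP5PF sequence held all 3 motifs without overlap among them, NDUFA6 held the NRF1 letters once, SDHB held them on both strands beside the GABP letters, and COX7B held none of the 3. With the 50 bases after the start included, which are not printed, NDUFA6 and SDHB also held the YY1 letters. A promoter of 300 bases, from 250 before to 50 after the first listed start, was found in RefSeq for 64 of the 77 members. The NRF1 letters were in 40.6% of these 64 (26 genes) against 12.5% of all 27305 promoters, the GABP letters in 31.2% against 10.7%, and the YY1 letters in 15.6% against 3.03%. At least 1 of the 3 was present in 62.5% of the members and 22.8% of all promoters. Among the members called higher with RES than in Model, 10 of the 19 with a promoter held at least 1 motif, and among those not called 29 of 43 did.

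Each library held between 16916688 and 23083498 counts, and the 77 genes took between 0.631% and 0.828% of them. All 77 were among the 14557 genes tested. Levels are in CPM, the count of a gene relative to the TMM-scaled size of its library, and fold changes come from edgeR's quasi-likelihood test on all 18 libraries, with p-values adjusted by the Benjamini-Hochberg method over all tested genes. A gene is called higher or lower at an adjusted p under 0.05. Of the hepatocyte markers 10 of 14 were called lower with RES than in Model and 3 higher. Over all genes 25.1% were called lower and 24.4% higher. AFP stood at a log2 fold change of -4.72 and ALB at -2.17, while the fibrinogen genes FGA, FGB and FGG rose. FGA measured 206, 209 and 210 CPM in Model and 779, 665 and 584 with RES. FGB measured 110, 112 and 112 CPM in Model and 143, 147 and 159 with RES. At 2 μM FUCO 11 of 14 markers were called lower, where 9.71% of all genes were. Of 10 markers of other cell types, 3 passed the filter on low counts, and 1 was called higher and 1 lower with RES than in Model. These cultures were measured in bulk, so fewer transcripts per cell and a smaller share of cells with them cannot be told apart. In 2 libraries the median member stood lowest against its mean over all libraries, FUCO-2 replicate 1 (-0.19 on the log2 scale) and FUCO-0.5 replicate 2 (-0.11), where the other 16 lay between -0.06 and 0.16.

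Levels between genes are compared per kilobase of the canonical transcript. On that scale the members' means over all libraries ran from 1.97 CPM per kb (NDUFV2) to 316 (ATP5F1B), with a median of 68.0. Complex IV genes had the highest median, 122 CPM per kb, and complex III genes the lowest, 34.1, with 48.1 in complex I, 38.1 in complex II and 76.5 in complex V. These ranks depend on the annotated canonical lengths, which were 11660 bases for NDUFS1, 8459 for UQCRB and 5761 for ATP5F1A. ATP5F1A had 76.5 CPM per kb beside 316 for ATP5F1B (1759 bases), with Model means of 444 and 539 CPM. Whether the cells used these transcripts was not tested. ATP5F1B, the catalytic β subunit of the ATP synthase, was followed by NDUFS8, an iron-sulfur subunit of complex I, at 284 CPM per kb. In 7 members (NDUFV2, NDUFA13, NDUFB8, SDHA, NDUFA11, ATP5PO and NDUFS7) over 50% of the exon bases also lie in exons of another annotated gene. Their median was 8.69 CPM per kb, against 76.8 for the other 70, and whether reads shared with the overlapping gene were discarded was not tested. UQCRHL is a near-identical copy of UQCRH, so reads of the pair may have been divided between them.

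**Figure D1:**
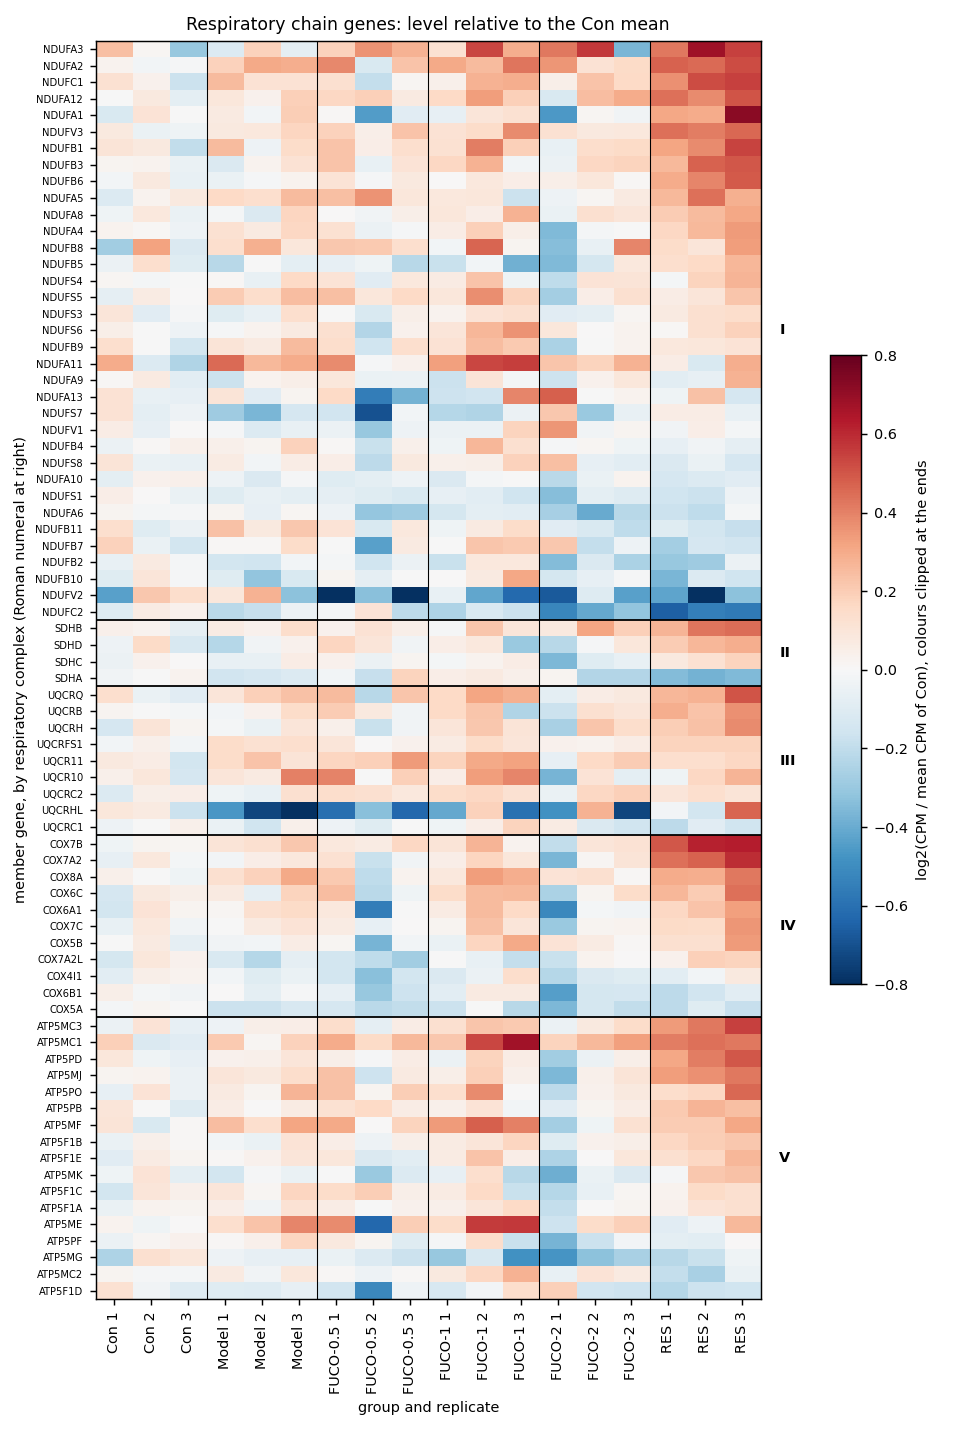
Level of 76 of the 77 genes (rows, by complex) in the 18 libraries (columns) as log2 of CPM over the Con mean, with red above and blue below it and colours clipped at the ends of the bar. Many rows are red in all 3 RES libraries, with blue rows at NDUFC2 and SDHA, and FUCO-2 replicate 1 is bluer than its 2 fellow libraries.

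The first comparison asked whether the fatty acid load alone changed the respiratory chain genes. No member was called between Model and Con, while 8.43% of all tested genes were called higher and 9.12% lower. By edgeR's unadjusted p under 0.05, 10 members differed, and DESeq2 also called 0. Counts at an unadjusted p, here and below, are given without the share of all genes at that threshold. They are not read as a result about the members. The median log2 fold change of the members was 0.04 and that of all tested genes 0.00, and 52 of 77 were positive. Their 95% intervals lay within 0.5 of 0 on the log2 scale for 71 members. The largest differences in each complex were NDUFA11 at 0.34 ± 0.14 (SE), SDHA at -0.13 ± 0.10, UQCRHL at -0.68 ± 0.26, COX8A at 0.21 ± 0.09 and ATP5ME at 0.26 ± 0.17, none of which passed the adjusted threshold. The summed level of all members was 6846 ± 102 CPM (SD, n = 3) in Con and 6972 ± 254 in Model, with overlapping libraries.

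The fucoxanthin doses of 0.5 and 1 μM addressed whether the compound moved these genes in loaded cells. At 0.5 μM against Model 0 members were called by edgeR and by DESeq2, with 3 at an unadjusted p under 0.05, where 0.289% of all genes were called higher and 1.16% lower. Their median was -0.03 and 28 of 77 were positive. At 1 μM edgeR called 0 and DESeq2 called 1, with 5 at an unadjusted p under 0.05, against 0.893% and 2.32% of all genes called higher and lower. The median was 0.06 and 61 members were positive, 10 of the 11 in complex IV and 8 of the 9 in complex III among them. In both comparisons 71 members had a 95% interval within 0.5 of 0.

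At 2 μM FUCO 7 members were lower than in Model and none was higher, 9.09% of the 77, where 9.71% of all genes were called lower and 10.8% higher. They were the complex I subunits NDUFB11, NDUFA6 and NDUFC2, NDUFA4, and the ATP synthase subunits ATP5MG, ATP5MF and ATP5PF. The log2 fold changes ran from -0.32 to -0.23, levels between 80.3% and 85.1% of Model. The median over the members was -0.06, against 0.01 over all genes, and 23 of 77 were positive. No gene of complexes II, III and IV was called. The largest differences there were 0.45 ± 0.27 (SE) for UQCRHL, -0.27 ± 0.13 for COX6A1 and -0.15 ± 0.07 for SDHC, and in complex I that of NDUFV2, at -0.41 ± 0.27, was not called.

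NDUFB11, a membrane-arm subunit of complex I encoded on the X chromosome, measured 88.0, 78.8 and 86.7 CPM in the Model libraries and 70.2, 68.6 and 64.8 at 2 μM FUCO. The 3 FUCO libraries all lay below the 3 of Model, and the log2 fold change was -0.32 ± 0.08 (SE, edgeR adjusted p = 0.00566), although 1 of the 3 Con libraries, at 69.9 CPM, lay within the FUCO range. NDUFA6, an LYR-motif subunit, measured 53.3, 50.1 and 53.1 CPM in Model and 43.6, 39.7 and 45.0 at 2 μM FUCO, again without overlap (-0.29 ± 0.08, edgeR adjusted p = 0.0114). ATP5MG, the g subunit of the ATP synthase membrane part, measured 35.9, 35.2 and 35.3 CPM in Model and 26.6, 29.3 and 30.7 at 2 μM FUCO. Its groups did not overlap either (-0.30 ± 0.10, edgeR adjusted p = 0.0357), but Con libraries ranged from 31.0 to 40.2. ATP5PF, which joins the stalk of the ATP synthase as coupling factor 6, measured 126, 129 and 142 CPM in Model and 97.3, 112 and 124 at 2 μM FUCO (-0.26 ± 0.09, edgeR adjusted p = 0.0349).

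These calls rest in part on the scaling and on single libraries. Scaling by library totals called 2 members, where it called 21.9% of all genes. The median over the 77 was then -0.0069, with 37 of them positive, and a fit of the 2 groups alone called 3. In FUCO-2 replicate 1 the level was the lowest of the 3 for ATP5PF, ATP5MG, ATP5MF, NDUFC2 and NDUFA4, and without that library 2 members remained called, NDUFB11 at -0.34 (edgeR adjusted p = 0.00699) and NDUFA6 at -0.30 (edgeR adjusted p = 0.0173). Leaving out FUCO-2 replicate 2 or Model replicate 3 also gave 2 called members, leaving out Model replicate 1 or 2 gave 3, and leaving out FUCO-2 replicate 3 gave 9. NDUFA6 was not called without FUCO-2 replicate 2 (edgeR adjusted p = 0.0735).

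Between 2 and 1 μM FUCO a single member was called, ATP5MF, the f subunit of the ATP synthase, where 4.07% of all genes were called higher and 2.23% lower. ATP5MF measured 43.4, 47.7 and 45.3 CPM at 1 μM and 28.4, 33.5 and 37.3 at 2 μM. The groups did not overlap, and the log2 fold change was -0.46 ± 0.09 (SE, edgeR adjusted p = 0.00457). Without FUCO-2 replicate 1 it was -0.36 (edgeR adjusted p = 0.0220). Of its exon bases, 37.2% are shared with a readthrough transcript, ATP5MF-PTCD1, and PTCD1. The readthrough held between 0 and 3 counts in each library and PTCD1 between 52 and 121. PTCD1 was not called between 2 and 1 μM (-0.09, edgeR adjusted p = 0.841). At 2 μM FUCO it was lower than in Model (-0.49, edgeR adjusted p = 0.0422). Whether shared reads affected the ATP5MF counts was not tested. In this comparison 10 of the 77 members were positive, with a median of -0.13 against 0.01 over all genes. An unadjusted edgeR p under 0.05 was reached by 20 of the 77.

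**Figure D2:**
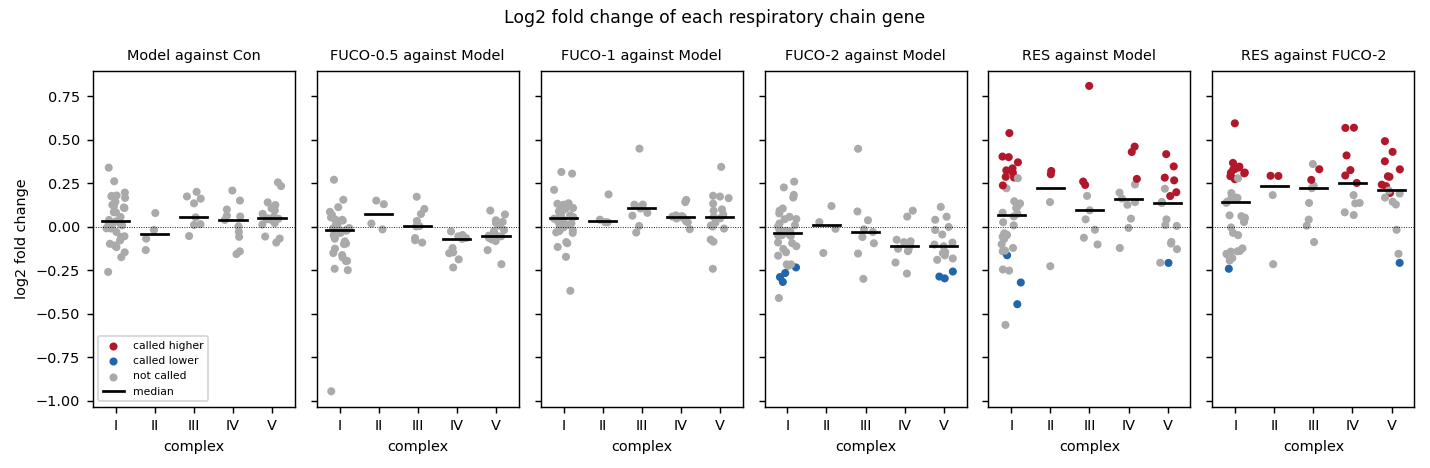
Log2 fold change of each gene (points) by complex in 6 comparisons, with red for genes called higher, blue for genes called lower, grey for the rest and a black line for the median. The points lie near 0 for Model against Con, 7 are blue for FUCO-2 against Model, and both comparisons with RES hold many red points in all 5 complexes.

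The largest number of calls against Model came with RES. Here 24 members were higher and 4 lower, 36.4% of the 77, where 24.4% of all genes were called higher and 25.1% lower. The members' median log2 fold change was 0.12, against 0.00 over all genes, and 51 of 77 were positive. All the called changes were modest, between 0.16 and 0.81 in size, and no member passed an absolute log2 fold change of 1 in any of the 8 comparisons. The called genes were 10 higher and 3 lower in complex I, 2 higher in complex II, 3 higher in complex III, 3 higher in complex IV and 6 higher and 1 lower in complex V. Scaling by library totals in place of TMM moved the median of all genes to 0.14. Then 44 members were called higher and 1 lower, where 54.8% of all genes were called in either direction.

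Of the 11 complex IV genes 3 were higher with RES than in Model, none was lower and 8 were not called. COX7B, a small subunit encoded on the X chromosome, measured 49.1, 50.1 and 53.2 CPM in Model and 64.6, 70.0 and 70.7 with RES. Its RES libraries lay above all 15 others, with a log2 fold change of 0.43 ± 0.08 (SE) against Model (edgeR adjusted p = 0.000115). COX7A2, the liver form of subunit VIIa, measured 107, 113 and 116 CPM in Model and 148, 151 and 164 with RES, again above all other libraries (0.46 ± 0.09, edgeR adjusted p = 0.000208). COX7A2L rose by 0.28 ± 0.08 (edgeR adjusted p = 0.00524), from a mean of 94.7 to 115 CPM. Among the genes not called were COX4I1 at 0.05 ± 0.08, COX6A1 at 0.14 ± 0.12 and COX6B1 at -0.12 ± 0.08. The muscle forms COX7A1 and COX6A2 were not members, with at most 4 and 0 counts in any library.

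Complex I was divided into its accessory subunits and the 7 nuclear-encoded core subunits, a grouping made after the values were seen, and the difference between both sets of genes was not tested. Of 28 accessory genes 10 were higher and 2 lower with RES than in Model, and of the core genes none was higher. Differences of NDUFS1 (-0.04 ± 0.07 SE), NDUFS3 (0.12 ± 0.07), NDUFS8 (-0.14 ± 0.09) and NDUFV1 (0.06 ± 0.09) were not called. NDUFV2 (-0.56 ± 0.27) and NDUFS7 (0.28 ± 0.13) were not called either, and both are genes with overlapped exons. Among the accessory genes NDUFB6 measured 32.3, 33.3 and 34.1 CPM in Model and 41.1, 43.8 and 47.1 with RES, with no overlap (0.40 ± 0.07, edgeR adjusted p = 6.97e-05).

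NDUFC2 moved the other way. This membrane-arm subunit measured 25.1, 28.3 and 27.6 CPM in Con, 23.3, 23.8 and 26.2 in Model, 18.8, 20.4 and 21.8 at 2 μM FUCO and 17.2, 18.5 and 18.3 with RES. The RES libraries lay below all others, at 73.5% of Model (log2 fold change -0.44 ± 0.09 SE, edgeR adjusted p = 0.000307) and 66.4% of Con (-0.59 ± 0.09, edgeR adjusted p = 6.82e-06). Against Model the value at 2 μM FUCO was -0.27 ± 0.09 (edgeR adjusted p = 0.0441), and Model libraries are shared by both comparisons. NDUFC2 shares 22.3% of its exon bases with NDUFC2-KCTD14, a readthrough transcript, and THRSP, which held at most 1 and at most 4 counts in any library. NDUFB11 also fell with RES, to 69.9, 67.4 and 65.8 CPM (-0.32 ± 0.08, edgeR adjusted p = 0.00151), although 2 of the 3 Con libraries, at 69.9 and 72.3 CPM, stood nearer to RES than to Model, and with scaling by library totals it was not called (-0.19, edgeR adjusted p = 0.0522). NDUFA3, a low-count subunit, rose by 0.54 ± 0.19 (edgeR adjusted p = 0.0220), from 2.91, 3.56 and 2.98 to 4.20, 5.01 and 4.57 CPM. UQCRHL, at 1.81, 1.502 and 1.35 CPM in Model and 2.46, 2.26 and 3.45 with RES, had the largest rise, 0.81 ± 0.25 (edgeR adjusted p = 0.0101), and its Con libraries (2.22 to 2.66 CPM) reached into the RES range.

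**Figure D3:**
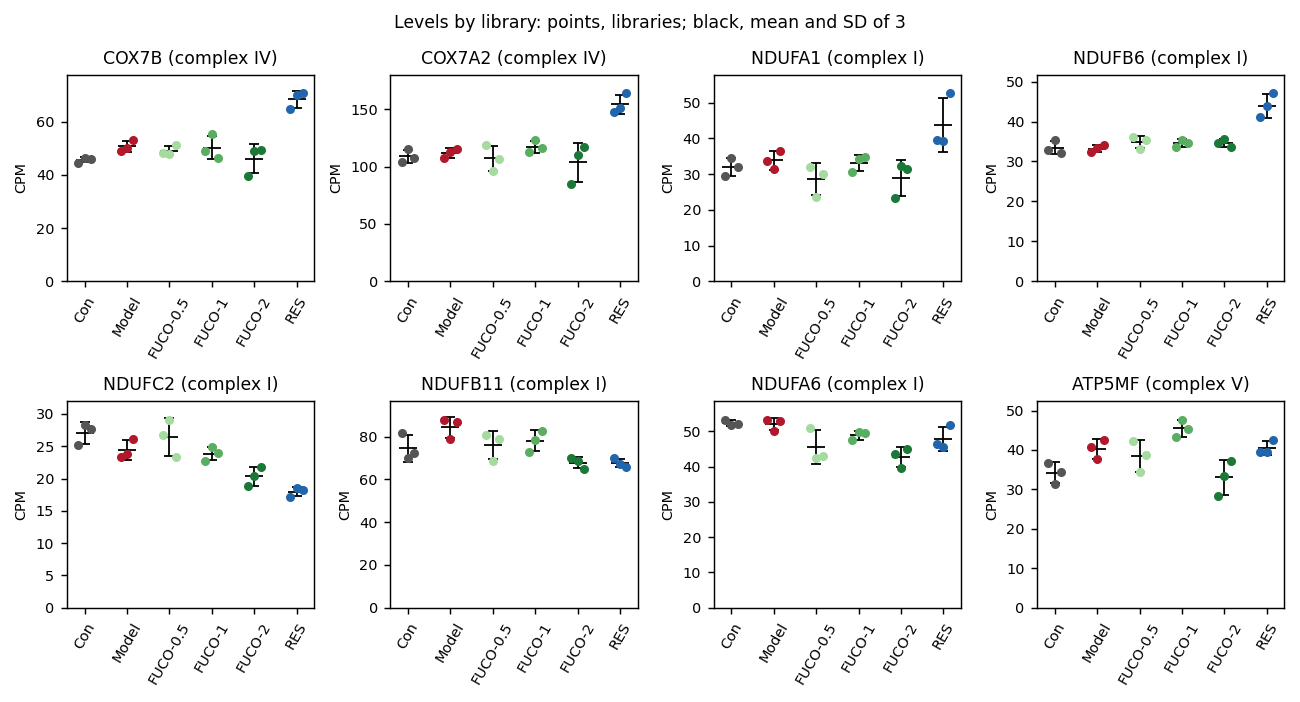
CPM of 8 genes in each library (points, coloured by group), with the mean and SD of 3 libraries in black and axes starting at 0. COX7B, COX7A2, NDUFA1 and NDUFB6 are highest in RES, NDUFC2 is lowest there, and NDUFB11, NDUFA6 and ATP5MF are lower in FUCO-2 than in Model.

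In complex II, which also serves the tricarboxylic acid cycle, SDHB and SDHD rose with RES and SDHA did not. SDHB, the iron-sulfur subunit, measured 39.5, 38.7 and 41.6 CPM in Model and 45.6, 50.9 and 51.5 with RES (0.30 ± 0.08 SE, edgeR adjusted p = 0.00273). SDHD, a membrane anchor, measured 39.1, 44.9 and 47.0 CPM in Model and 52.7, 54.9 and 56.1 with RES (0.32 ± 0.10, edgeR adjusted p = 0.0102). The catalytic subunit SDHA measured 14.4, 14.5 and 14.8 CPM in Model and 12.6, 12.3 and 12.5 with RES, without overlap but short of the threshold (-0.23 ± 0.10, edgeR adjusted p = 0.0620). Of its exon bases 69.4% are overlapped. SDHC, which had the highest CPM in complex II, measured 127, 127 and 138 CPM in Model and 139, 144 and 150 with RES. These groups did not overlap, but SDHC was not called. In complex III UQCRH and UQCRB rose (0.26 ± 0.10 and 0.24 ± 0.10), and UQCRC1, UQCRC2 and UQCRFS1, the core and Rieske subunits, differed by -0.10 ± 0.07, 0.10 ± 0.07 and 0.04 ± 0.06 without passing it.

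The ATP synthase held an unequal change within a set of paralogs. ATP5MC1, ATP5MC2 and ATP5MC3 encode precursors of the same mature c subunit, which forms the rotating ring. ATP5MC3 measured 160, 170 and 171 CPM in Model and 208, 220 and 241 with RES, above all other libraries (0.42 ± 0.08 SE, edgeR adjusted p = 6.10e-05). ATP5MC1 rose by 0.28 ± 0.10 (edgeR adjusted p = 0.0214), from a mean of 31.7 to 38.6 CPM, although the 1 μM FUCO libraries, at 33.3, 41.7 and 45.9 CPM, reached higher. ATP5MC2 fell from 178, 166 and 181 CPM to 149, 142 and 164 (-0.21 ± 0.07, edgeR adjusted p = 0.0177), and that call was lost without any 1 of 4 libraries (Model replicate 1 or 3, RES replicate 1 or 2) and with scaling by library totals. Per kilobase, ATP5MC2 made up 70.9% ± 0.5 (SD, n = 3) of the 3 genes' sum in Model and 62.2% ± 1.3 with RES, and ATP5MC3 16.5% ± 1.0 and 22.3% ± 0.8. In the 5 other groups the ATP5MC2 share lay between 68.5% and 72.2% in every library. The sum itself was 391 ± 15.2 CPM per kb in Model and 386 ± 23.0 with RES, with overlapping libraries. Both the shares and the sum depend on the canonical lengths, 632 bases for ATP5MC2 and 2587 for ATP5MC3. ATP5F1B, the catalytic β subunit, rose by 0.18 ± 0.07 (edgeR adjusted p = 0.0291), and ATP5F1A differed by 0.04 ± 0.07.

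**Figure D4:**
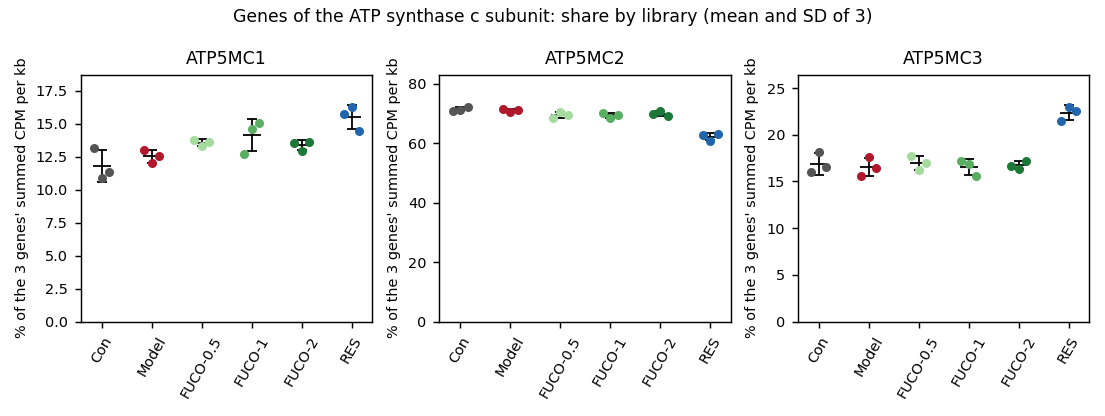
Share of ATP5MC1, ATP5MC2 and ATP5MC3 in their summed CPM per kb, in percent, for each library (points) with the mean and SD of 3 in black. Every RES library lies below all others for ATP5MC2 and above all others for ATP5MC3.

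Against Con, from which RES differs by both the fatty acid load and the drug, 31 members were higher and 3 lower, where 28.8% and 28.5% of all genes were called higher and lower. The median was 0.15, with 56 of 77 positive. COX7B (0.58 ± 0.08 SE), NDUFA3 (0.55 ± 0.19) and COX7A2 (0.50 ± 0.09) had the largest rises, and NDUFC2 and SDHA (-0.36 ± 0.10, edgeR adjusted p = 0.00326) were among the lower genes. NDUFA3 lost its call without Con replicate 3 or RES replicate 2. With scaling by library totals SDHA was not called (-0.17, edgeR adjusted p = 0.153). The called genes were 12 higher and 2 lower in complex I, 2 and 1 in complex II, 4 and 0 in complex III, 5 and 0 in complex IV and 8 and 0 in complex V.

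RES against 2 μM FUCO compared the drugs directly in loaded cells, at doses that cannot be matched. RES was higher in 30 members and lower in 2, where 22.5% of all genes were called higher and 26% lower. The median was 0.18 and 60 of 77 were positive, all 11 of complex IV among them. NDUFA1, a small accessory subunit encoded on the X chromosome, measured 23.2, 32.3 and 31.4 CPM at 2 μM FUCO and 39.5, 39.2 and 52.6 with RES (0.60 ± 0.13 SE, edgeR adjusted p = 0.000404). COX7B and COX7A2 each differed by 0.57 (± 0.08 and ± 0.09), and ATP5MC2 was among the lower genes (-0.21 ± 0.07, edgeR adjusted p = 0.0183). Without FUCO-2 replicate 1, 18 members were higher and 2 lower, and without RES replicate 3, 17 and 2.

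Summed over each complex, the RES means were 102% of Model in complex I, 114% in complex II, 108% in complex III, 112% in complex IV and 108% in complex V. With TMM scaling the 3 RES libraries lay above the 3 of Model only for complexes II and IV: 250 to 270 against 220 to 241 CPM, and 1189 to 1317 against 1094 to 1153 CPM. Complex I ranged from 2539 to 2699 CPM with RES and from 2493 to 2664 in Model. With scaling by library totals the RES libraries lay above those of Model in all 5 complexes, from 2726 to 2909 against 2448 to 2591 CPM in complex I, where the RES mean was then 112% of Model. At 2 μM FUCO the sums lay between 93.3% (complex IV) and 98.8% (complex III) of Model, and each of the 5 overlapped it. The sum over all members was 7257 ± 270 CPM (SD, n = 3) at 1 μM FUCO, 6691 ± 326 at 2 μM and 7416 ± 268 with RES.

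None of the subunits encoded in mitochondrial DNA was called higher with RES or at 2 μM FUCO than in Model. With TMM scaling their sum was 67263 ± 2646 CPM in Model, 61185 ± 7915 at 2 μM FUCO and 61132 ± 3995 with RES. Libraries of both treated groups overlapped those of Model, which ranged from 64504 to 69780 CPM, against 57275 to 65252 with RES. With scaling by library totals the means were 65865 CPM in Model, 62100 at 2 μM FUCO and 65662 with RES. Of the 13 genes 3 were lower with RES than in Model, where 25.1% of all genes were lower, and 4 at 2 μM FUCO, where 9.71% were. ND1, a core subunit of complex I, measured 3892, 3679 and 3914 CPM in Model, 2392, 2858 and 3036 at 2 μM FUCO and 2717, 2516 and 2294 with RES. Its log2 fold change against Model was -0.47 ± 0.10 (SE, edgeR adjusted p = 0.00178) with FUCO and -0.61 ± 0.10 (edgeR adjusted p = 2.38e-05) with RES. Without FUCO-2 replicate 1, whose sum was the lowest of all libraries at 52114 CPM, ND1 and ND6 remained called at 2 μM. The highest sum, 87105 CPM, was that of FUCO-0.5 replicate 2. Libraries were enriched for polyadenylated RNA, so these levels depend on the tails of mitochondrial transcripts.

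**Figure D5:**
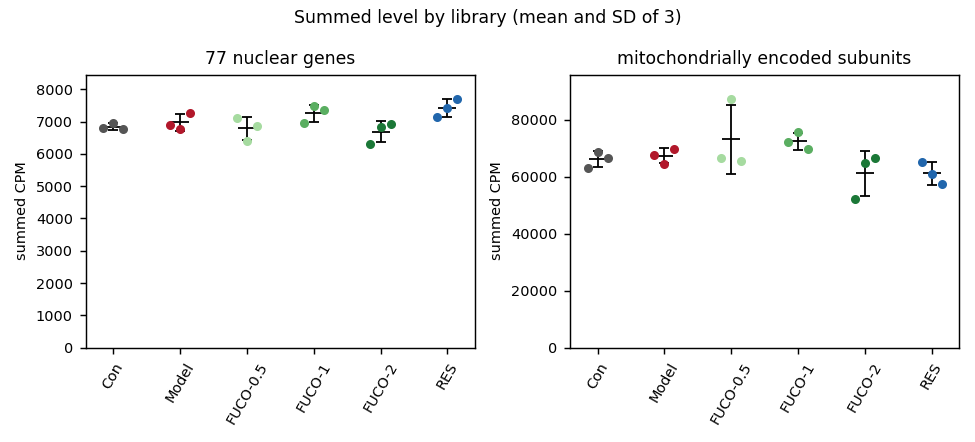
Summed CPM of the 77 nuclear genes (left) and of the mitochondrially encoded subunits (right) in each library (points), with the mean and SD of 3 in black and axes starting at 0. Nuclear sums are highest with RES and at 1 μM FUCO, and the mitochondrial sums of FUCO-2 replicate 1 and FUCO-0.5 replicate 2 lie farthest from their groups.

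Other genes of the pathway were described from lists, whose counts with RES against Model stand beside the 24.4% of all genes called higher and 25.1% called lower. Of 5 subunits outside the symbol rule, CYCS (cytochrome c) and NDUFAB1 rose with RES against Model, and ATP5IF1, the inhibitor of ATP synthase hydrolysis, fell. ATP5IF1 measured 25.4, 24.6 and 27.3 CPM in Model, 19.6, 19.5 and 22.7 at 2 μM FUCO and 17.6, 16.2 and 15.6 with RES (-0.32 ± 0.09 SE, edgeR adjusted p = 0.0172, and -0.64 ± 0.09, edgeR adjusted p = 4.44e-06). Of 17 complex I assembly factors 6 were higher and 4 lower with RES. Among the higher ones were NDUFAF2 at 0.73 ± 0.13, TMEM126B at 0.51 ± 0.09 and NDUFAF4 at 0.54 ± 0.11. At 2 μM FUCO 3 of the 17 were higher, where 10.8% of all genes were. Of 24 complex IV assembly factors 7 were higher and 2 lower with RES, and of 8 for complex III 3 were higher and 0 lower, LYRM7 at 0.70 ± 0.10 among them. Assembly factors of complexes II and V, 4 genes each, had 1 and 2 higher and none lower.

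Among 16 regulators of mitochondrial biogenesis, 7 were higher with RES than in Model and none lower, beside the same shares of 24.4% and 25.1% over all genes. PPARGC1A, the coactivator PGC-1α, measured 12.6, 18.6 and 16.2 CPM in Con, 9.21, 10.1 and 10.6 in Model and 17.8, 21.6 and 19.4 with RES. It fell in Model against Con (-0.66 ± 0.13 SE, edgeR adjusted p = 0.00110) and rose with RES against Model (0.97 ± 0.13, edgeR adjusted p = 1.31e-06). PPARGC1B, its paralog, was a low-count gene at 0.329, 0.445 and 0.542 CPM in Model and 2.58, 2.15 and 1.63 with RES (2.27 ± 0.36, edgeR adjusted p = 1.20e-05). TFAM, which packages mitochondrial DNA and takes part in starting its transcription, rose by 0.37 ± 0.08 (edgeR adjusted p = 0.000307). At 2 μM FUCO TFB1M and TWNK were higher (0.41 ± 0.11 and 0.45 ± 0.09), and PPARGC1A, at 0.35 ± 0.14, was not called. In the tricarboxylic acid cycle 5 of 13 genes were higher and 1 lower with RES, and IDH3A, a catalytic subunit of isocitrate dehydrogenase, rose by 1.19 ± 0.13 (edgeR adjusted p = 8.34e-08), from a mean of 8.49 to 19.3 CPM.

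Ribosomal protein genes gave a comparison of like size. Of 77 mitochondrial ribosomal protein genes 20 were higher and 8 lower with RES than in Model (median 0.09), and of 82 cytosolic ones 17 and 3 (median 0.11). At 2 μM FUCO 35 cytosolic ribosomal protein genes were higher and 2 lower (median 0.21), where 10.8% and 9.71% of all genes were. The respiratory chain genes had a median of -0.06 there, and the mitochondrial ribosomal list is not given for this dose. Correlation of the members' log2 fold change with log2 transcript length, over 77 genes of the same libraries, was -0.01 (Pearson's r) for RES against Model, 0.04 for FUCO-2 against Model and 0.34 for FUCO-2 against FUCO-1. Of the 77 members 31 were called in none of the 8 comparisons.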

How the data were processed

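Polyadenylated RNA of 18 Hep3B libraries in 6 groups was sequenced in paired ends. Trimming (fastp), alignment to GRCh38.p14 (STAR) and gene-level counting (featureCounts) were done by the authors, and the deposited counts carry no normalization. The methods name GENCODE as the annotation, while the symbols follow RefSeq forms. The strand setting and the treatment of reads with several matches are not given in the sources used here.

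The table was analysed in R 4.3.3 with edgeR 4.0.16 (filterByExpr with a minimum count of 10, TMM factors, quasi-likelihood testing in 1 model that holds a coefficient for every group). The 14557 tested genes held 99.94% of the counts. CPM and per-kilobase levels were computed from these counts, with the canonical transcript lengths and exon overlaps of a GENCODE table and the positions and promoters of RefSeq on GRCh38.p14. Totals ran from 16916688 to 23083498 counts per library. The members, the lists and the rules were chosen with earlier results of these data known, so no list is tested and no p-value is adjusted over a list alone. Members named singly were the largest called rises and falls of each comparison without overlap between groups, fixed core subunits and paralogs, and the largest difference per complex in 3 comparisons. ATP5PF, NDUFA4, NDUFB6, UQCRB, UQCRH and the ND genes fell outside that rule and were chosen after their values were seen. The values of 1 member are not reported here, though it stays in the counts and medians.

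Alternatives were DESeq2 1.42.0 (the method of the study), RLE and upper quartile factors, library totals, no or a stricter filter on low counts, fits of the 2 groups compared, a replicate block, a minimum fold change, and the omission of single libraries. The code was tested on simulated data. Replicate numbers gave no clear pairing of the libraries.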

Additional observations from a re-analysis of the deposited data

Results flagged for a closer look

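The effects of both fucoxanthin doses against Model differed for 1 member, where 6.3% of all genes differed. The difference of ATP5MF between 2 and 1 μM was -0.46 on the log2 scale, lower in 3 of 3 libraries at 2 μM (edgeR adjusted p = 0.00457). The effects of RES and of 2 μM FUCO against Model differed for 32 members, 30 of them higher with RES, which is 41.6% of the 77 where 48.4% of all genes differed. Each difference was tested directly between both groups in the edgeR fit. Without FUCO-2 replicate 1 the first difference was -0.36 (edgeR adjusted p = 0.0220), and 20 members differed in the second.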

How the results depend on the processing

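With library totals in place of TMM, 7 members were called for Model against Con, 1 for FUCO-1 against Model, 2 for FUCO-2 against Model and 45 for RES against Model (44 higher, 1 lower), 51 for RES against Con (50 and 1) and 46 for RES against FUCO-2 (46 and 0). Of all genes this scaling called 18.7% for Model against Con, and 3.33%, 21.9% and 54.8% for FUCO-1, FUCO-2 and RES against Model. It called 63.0% for RES against Con and 50.9% for RES against FUCO-2. This scaling moved the medians over all genes to 0.14 for RES against Model and 0.20 for RES against Con. The members' medians moved to 0.25 and 0.34, and to 0.27 for RES against FUCO-2. The summed CPM became 2377, 2537 and 2822 in Con, FUCO-2 and RES for complex I, and in Con and RES 218 and 280 for complex II, 643 and 819 for complex III, 1052 and 1338 for complex IV and 2145 and 2708 for complex V. The causes were not tested. DESeq2 called 1 member for FUCO-1 against Model and 2 for FUCO-2 against FUCO-1, where it called 4.38% and 7.53% of all genes. Upper quartile factors called 2 members for the latter, where 6.22% of all genes were called. Without a filter on low counts 1 member was called for Model against Con, and 1 each for FUCO-0.5 and FUCO-1 against Model. For FUCO-2 against FUCO-1 it was 6. The shares of all genes were 10.9%, 1.47%, 2.89% and 5.01% in the same order. Fits of the 2 groups compared called 4 for Model against Con, 2, 3 and 47 for FUCO-1, FUCO-2 and RES against Model. With an absolute log2 fold change over 1 as a further condition, 0 members were called in each of the comparisons FUCO-2 and RES against Model, RES against Con, FUCO-2 against FUCO-1 and RES against FUCO-2.

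Leaving out each library in turn gave 0 to 2 called members for Model against Con, 0 to 1 for FUCO-0.5 and 0 to 1 for FUCO-1 against Model, 2 to 9 for FUCO-2 against Model, 18 to 33 for RES against Model, 27 to 38 for RES against Con, 1 to 3 for FUCO-2 against FUCO-1 and 19 to 36 for RES against FUCO-2. For RES against Model the 18 came without Model replicate 1, Model replicate 2 or RES replicate 3. Of 22 called pairs of a named gene and a comparison, 11 stayed called in all 26 alternatives and none changed sign. UQCRHL was not called for RES against Model without RES replicate 3 (highest adjusted p over its alternatives 0.0778, edgeR), nor SDHD without Model replicate 1 (0.0766, edgeR), and NDUFA3 lost its call without Model replicate 1, Model replicate 3 or RES replicate 2 (0.0800, edgeR).

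The replicate numbers gave no clear pairing of the libraries. Over 45 pairs with the same number the correlation of deviations from the group means ran from -0.20 to 0.19. Its median was 0.02, with 7 above 0.1. Over 90 pairs with other numbers it ran from -0.28 to 0.29, with a median of -0.02 and 8 above 0.1. With a replicate block 7 members were called for FUCO-2 against Model, 30 for RES against Model, 38 for RES against Con, 1 for FUCO-2 against FUCO-1 and 35 for RES against FUCO-2, and 0 in the other 3 comparisons. With 3 libraries a group, the median 95% interval of a member reached 0.18 on the log2 scale to each side, so smaller differences were mostly not detectable.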
